A study of Mus musculus with 8 samples.

Results

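The genes described here encode the proteins of the cytosolic ribosome. They were taken by symbol from the deposited expression table: every symbol that begins with Rpl or Rps and a digit, plus Rplp0, Rplp1, Rplp2 and Rpsa, leaving out the Rps6 kinases and symbols marked -ps for pseudogene. This gave 87 of the 12294 genes of the table, 51 named for the large subunit (Rpl) and 36 for the small subunit (Rps). Of these, 77 are genes of the subunit proteins themselves (46 large, 31 small). The other 10 are paralogs (Rpl22l1, Rpl36al, Rps27l, Rpl7l1), copies (Rpl32l, Rpl37rt, Rps27rt, Rps3a3) and 2 genes caught by the symbol alone, Rps19bp1 and Rps23rg1. The symbol rule itself used no measured value, but the genes were chosen with earlier results of these data known.

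The cells were leukemic progenitors that the labels call I1DN, sorted as cKit+ and CD11b- from mice that had received I1DN leukemic cells as a transplant. What I1DN abbreviates is not given in the labels. All groups carried the same leukemia and differed in what the mice were given over 5 days. Some mice received vehicle and others AG120, also written AG-120, which is the drug ivosidenib and blocks the mutant IDH1 enzyme. A further group received AZA (azacitidine, an analogue of cytidine that is built into nucleic acid and traps DNA methyltransferases), and the last received AG120 and AZA together, called AG120_AZA. There were 4 groups of 2 libraries each. The sex and age of the mice are not given, and although sorting was done mouse by mouse, nothing states that each library came from its own animal. The p-values weigh each change between groups against the spread of libraries within groups, and that spread may therefore be technical only.

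The ribosome is built from ribosomal RNA and a fixed set of proteins, most of which are present once per particle, and its large and small subunits join on the messenger RNA during translation. Ribosomal protein messages are among the most abundant of growing cells, and many begin with a run of pyrimidines at the very 5′ end (the 5′ terminal oligopyrimidine, or TOP, motif), through which mTOR signalling regulates their translation. In blood cells the family is known from Diamond-Blackfan anemia, an inherited failure of red cell production caused by heterozygous loss of a ribosomal protein gene, and from the loss of RPS14 in 5q- myelodysplastic syndrome.

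A feature of these genes that the symbol rule did not use is the pyrimidine run at the start of the message. The start region of 7 members is shown, to set long runs beside a short one and none, 20 bases before and 10 after the RefSeq start (GRCm38.p6, gene strand), with the longest run of C and T in capitals, where it has at least 5 bases.
Rpl14: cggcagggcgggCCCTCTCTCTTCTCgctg
Rplp2: cccactgcgtcagcgTCTTCCTTTCgccgc
Rps24: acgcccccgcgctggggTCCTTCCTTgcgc
Rpl39: CCCCCCCTaagctccgcctctagcgacttc
Rps3a1: gaTTCTTaaagccggaagggcgaaagagca
Rpl22l1: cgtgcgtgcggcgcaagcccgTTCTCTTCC
Rps19bp1: accgccagggcggaagtagctcgccgcgtg
The windows lie at chr9:120571497-120571526 (Rpl14, plus strand), chr7:141447631-141447660 (Rplp2, plus strand), chr14:24490658-24490687 (Rps24, plus strand), chrX:37085213-37085242 (Rpl39, minus strand), chr3:86142659-86142688 (Rps3a1, minus strand), chr3:28805488-28805517 (Rpl22l1, plus strand) and chr15:80264297-80264326 (Rps19bp1, minus strand). Rpl14, Rplp2 and Rps24 encode ribosomal proteins and hold runs of 14, 10 and 9 pyrimidines. Rpl39 and Rps3a1 encode ribosomal proteins too, but in this window Rpl39 has its run of 8 at the far upstream end, and the longest run of Rps3a1 has 5 bases. The paralog Rpl22l1 has a run of 9 at the downstream end. Rps19bp1 encodes a nucleolar protein that binds the Rps19 protein and is not itself a ribosomal protein, and its longest run has 3 bases. Of the 87 symbols, 66 matched a RefSeq start. A run of at least 8 C or T was searched on the gene strand within 30 bases on either side of the start. It was found in 36 of these 66 (54.5%), against 6965 of all 27025 gene symbols with a start (25.8%). For a symbol with several starts the longest run over them was taken. Among genes of the subunit proteins it was found in 21 of 34 for the large subunit (61.8%) and 11 of 23 for the small subunit (47.8%). It was found in 7 of 42 genes of ribosome biogenesis (16.7%) and 19 of 69 genes of mitochondrial ribosomal proteins (27.5%). A match says only that these letters are there.

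The values are log2 CPM, the logarithm of a read count scaled to a common library total. The assay, QuantSeq, reads 1 stretch near the 3′ end of each polyadenylated message, so values are not divided by gene length. The authors had brought all libraries to 1 common distribution, which has 3 effects on what follows. The sequencing depth of each library is unknown. A change that touches all messages alike cannot be seen. At the top of the list a value is only a place in the ranking: the highest gene stands at 13.37 in every library, the next at 13.20 and the third at 12.92. Since these are bulk libraries, fewer cells of a type and less RNA per cell cannot be told apart.

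Ribosomal protein genes filled the top of that ranking. Between 22 and 27 of them stood among the 50 highest genes of a library, and between 3 and 8 among the 10 highest. Together they made up 13.3% to 15.7% of the summed CPM of a library. Rps9 of the small subunit, at a mean of 12.63 log2 CPM, Rpl15 of the large subunit, at 12.62, and Rpl32 of the large subunit, at 12.40, were among the highest. The mean over 8 libraries was at least 5 for 73 members and below 5 for 14. Of those 14, 9 are genes of subunit proteins that every ribosome holds: Rpl27 (0.36), Rps7 (1.80), Rps27 (2.0), Rpl36 (2.88), Rpl35 (3.5), Rpl23a (3.73), Rps12 (3.87), Rps23 (3.99) and Rpl9 (4.8). The other 5 are the copies Rps3a3, Rpl32l, Rps27rt and Rpl37rt and the gene Rps23rg1, from 1.07 to 3.01.

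For a pair of these low genes the table lists a near-identical copy at the level the gene's partners have. Rps12 stood at 3.92 and 3.84 log2 CPM in the vehicle libraries, 3.56 and 3.81 with AG120, 3.52 and 3.94 with AZA and 4.20 and 4.18 with both drugs. Its copy Rps12-ps3 stood between 9.52 and 9.89 in the same 8 libraries. The copy lies at chr19:59322290-59322783 (mm10, plus strand), GENCODE M21 annotates it as a protein-coding gene, and its 494 bases match the Rps12 message with 0 mismatches. Rpl23a stood between 3.30 and 4.19, and its copy Rpl23a-ps3, annotated as a processed pseudogene at chr14:34170655-34171122 (plus strand), between 9.65 and 10.15. The copy differs from the Rpl23a message at 1 of 468 aligned bases, which is shown in capitals in the 30 bases around it.
Rpl23a: ccacaaaaagaagaAgatccgaacgtcacc
Rpl23a-ps3: ccacaaaaagaagaTgatccgaacgtcacc
In all 8 libraries both copies exceeded their parent gene, with no overlap. The table holds 56 -ps symbols in all, of which 44 had a mean below 3 and 5 a mean of at least 5. Of the 49 that could be aligned to the message of their parent gene over at least 80% of their length, 8 were identical to it over the aligned bases and 3 had the higher mean. The third was Rpl36-ps12, at 3.89 against 2.88 for Rpl36, with 3 mismatches in 375 bases. The sources used here do not give how reads that match both gene and copy were counted. The values of Rps12, Rpl23a and Rpl36 and their copies are therefore uncertain. The same holds for Rpl9 with Rpl9-ps6 and for Rps27 with Rps27rt, which matched it with 0 mismatches over 341 bases. For Rpl9, Rps23 and Rps27 the aligned copy had a lower mean than the gene. For Rpl27, Rps7 and Rpl35 no copy was aligned, so this comparison could not be made for them. Members at higher levels have near-identical copies too, with means below those of the genes. Of members named below, Rpl10 was matched by Rpl10-ps3 with 0 mismatches over 740 bases. Rps13-ps1, Rps2-ps10 and Rpl39-ps had 2, 5 and 1 mismatches to their genes. How far such copies affect the values of these members was not tested.

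**Figure D1:**
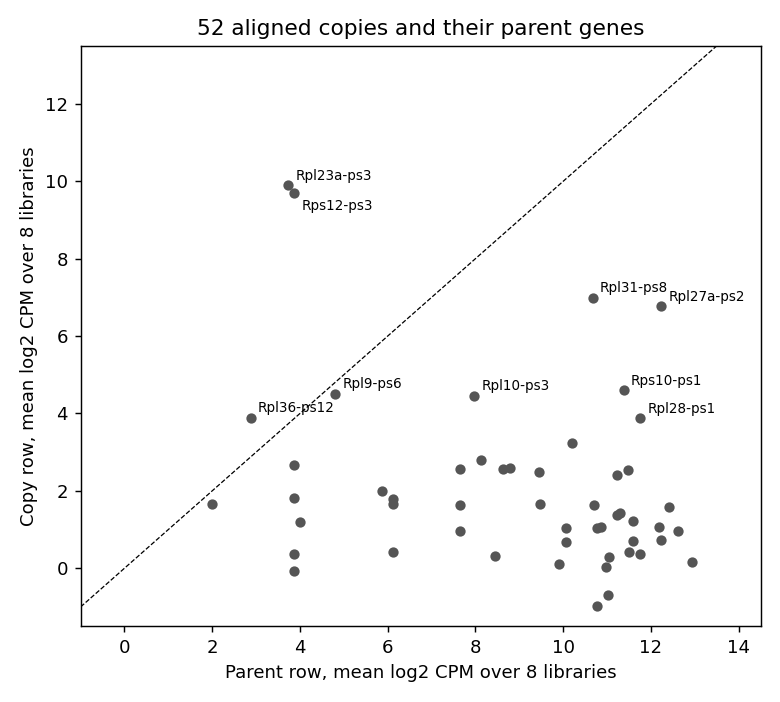
Mean log2 CPM over 8 libraries of 52 copies, 49 of them -ps symbols and 3 the members Rps27rt, Rpl32l and Rps3a3 (vertical axis), against that of their parent ribosomal protein gene (horizontal axis), 1 point per copy, with the dashed line marking equal values. Rpl23a-ps3 and Rps12-ps3 lie far above the line, Rpl36-ps12 lies above it by about 1 log2 unit, and the other copies lie below it.

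Replicates lay closer together for the members than for other abundant genes. Among the 73 members with a mean of at least 5, the median SD between replicates, after the group means were removed, was 0.176 log2 units, against 0.239 for the 4687 other genes with such a mean. With a mean of at least 9 it was 0.155 for 56 members and 0.210 for 227 other genes. The 8 libraries spanned more than 1 log2 unit for 8 of these 73 members and for 1737 of the 4687 others. Small subunit genes had a median SD of 0.136 (29 genes) and large subunit genes 0.20 (44 genes). Steadiest were Rplp2 (SD 0.058), Rps16 (0.060) and Rps25 (0.067), and least steady were 3 members with low means, Rpl32l (0.590), Rps27 (0.689) and Rps23rg1 (0.732). Among members with a mean of at least 5 the largest SD was that of Rps24 (0.428).

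The replicates of 1 group could differ across the whole family. Vehicle replicate 2 was below vehicle replicate 1 in 53 of 73 members and above it in 16, with a median difference of -0.15 log2 units. For all genes with a mean of at least 5 the same median was -0.01. AZA replicate 2 was above AZA replicate 1 in 44 of 73 members, with a median of 0.13. The share of summed CPM held by the 87 members was 15% and 13.3% in the vehicle libraries, 14.3% and 13.6% with AG120, 13.7% and 15% with AZA and 14.3% and 15.7% with both drugs. Both libraries given both drugs were above both given AG120 alone, the closest pair at 14.312% and 14.282%, and all other pairs of groups overlapped in this share.

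**Figure D2:**
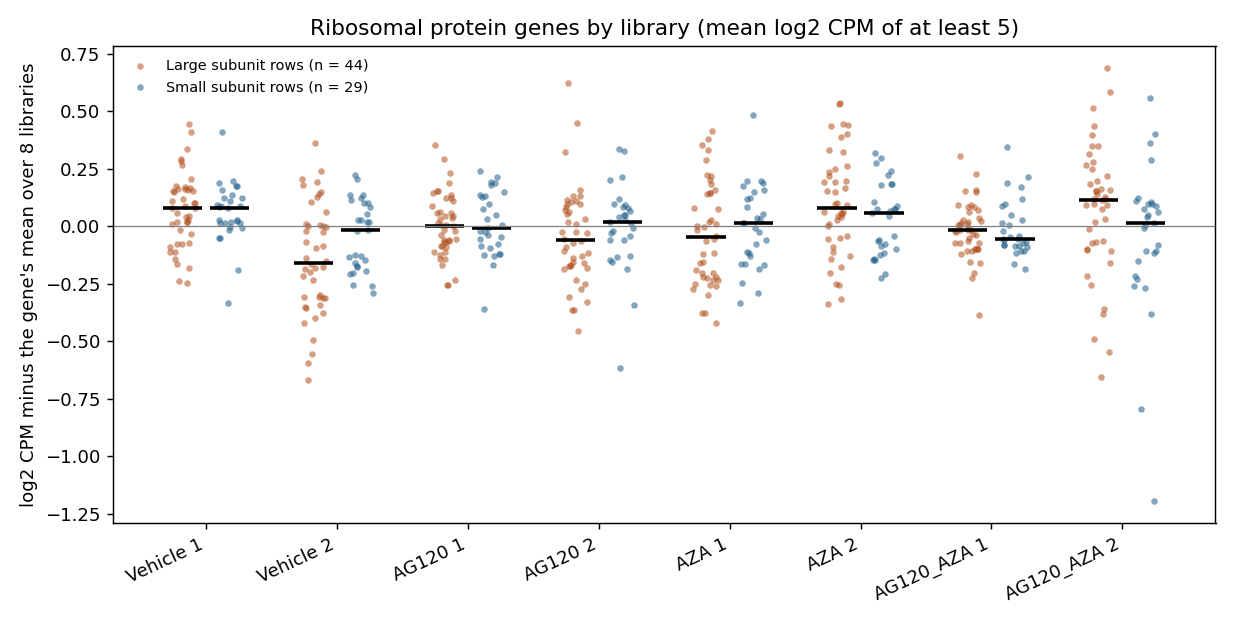
Log2 CPM of each ribosomal protein gene with a mean of at least 5, minus its own mean over 8 libraries, by library, with 44 large subunit genes in orange and 29 small subunit genes in blue; black bars are medians. The medians of the large subunit genes run from -0.16 in vehicle replicate 2 to 0.11 in AG120_AZA replicate 2, and the lowest point is Rps24 in AG120_AZA replicate 2.

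Large and small subunit genes were compared by their summed CPM. The ratio of large to small was 1.17 and 1.12 in the vehicle libraries, 1.19 and 1.141 with AG120, 1.15 and 1.26 with AZA and 1.23 and 1.39 with both drugs. The values with both drugs lay above those with vehicle or AG120, and AZA overlapped all other groups. The group means were 1.15 ± 0.038 (SD, n = 2), 1.17 ± 0.036, 1.20 ± 0.081 and 1.31 ± 0.12. A few genes at the top of the ranking weigh heavily in such a sum. Rpl15 stood within the first 12 places in every library and reached 13.20 in AG120_AZA replicate 2. Without Rpl15, a choice made after its values were seen, the group means were 1.06, 1.07, 1.11 and 1.18. With both drugs against vehicle the median log2 change of single genes was 0.08 for large and 0.04 for small subunit genes, and among genes with a mean of at least 5 it was 0.08 and -0.02. The difference of these medians ran from 0.0377, over all members, to 0.127 without vehicle replicate 1. For scale, the median level of large minus that of small subunit genes, taken per library, had a pooled SD within groups of 0.157. With AG120 over both AZA levels the medians were 0.00 and 0.01.

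One of the 2 comparisons that use all 8 libraries in groups of 4 set the 4 libraries with AG120 against the 4 without it, over both AZA levels. Changes were tested with limma across all 12294 genes, with Benjamini-Hochberg adjustment, and a gene was called at an adjusted p below 0.05. No ribosomal protein gene was called: 0 of 87, where 5.85% of all genes were (415 higher, 304 lower). At an unadjusted p below 0.05 there were 4 of 87 members (4.6%), against 22.9% of all genes. The median log2 change was 0.00 for the members and 0.01 for all genes, with 44 members above 0 and 43 below. Leaving out single libraries moved the members' median between -0.05 and 0.04, and in each of the 8 comparisons it turned its sign for at least 1 library left out. Single members ran from -0.55 (Rps24) to 0.82 (Rps7, which had a mean of only 1.80). The 95% interval of the change lay within 1.5-fold in either direction for 59 of 87 members and within 2-fold for 77, against 2110 and 6188 of all 12294 genes. The libraries with and without AG120 did not overlap for 4 members (4.6%, against 14% of all genes): Rps19bp1 and Rps7 were higher with AG120, and Rpl39 and Rps21 lower.

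**Figure D3:**
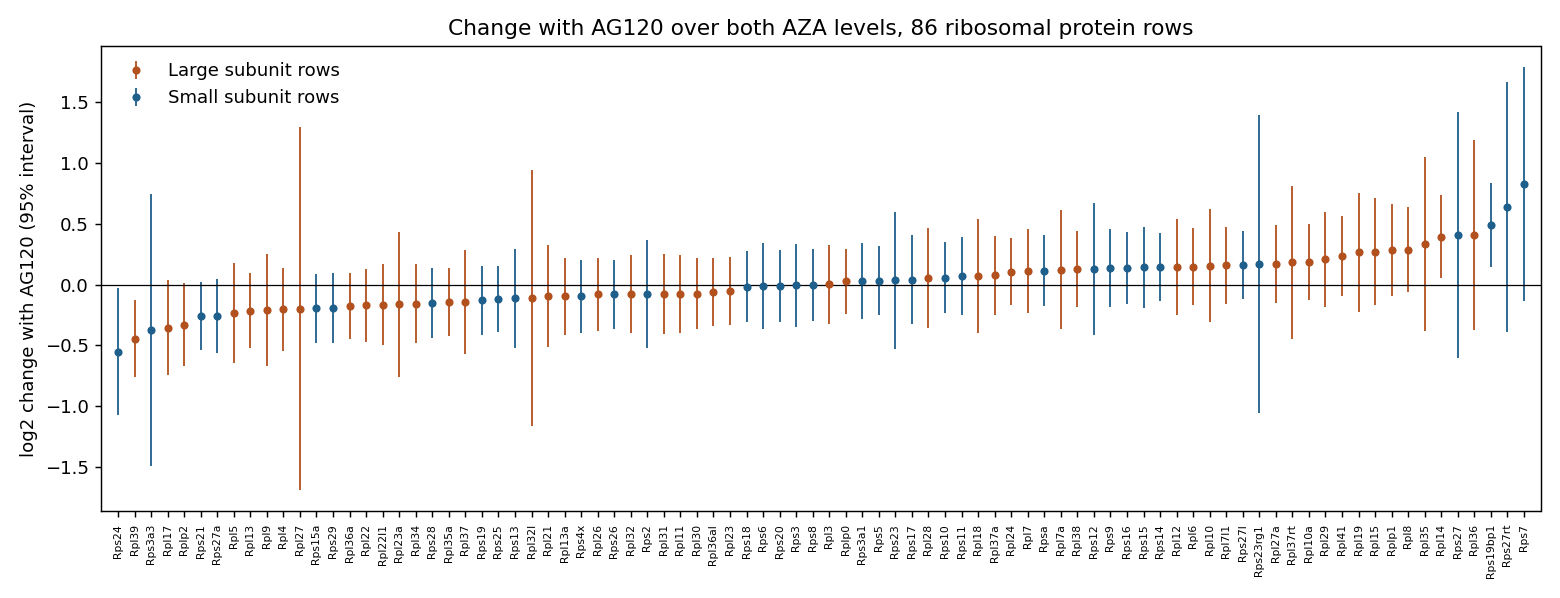
Log2 change with AG120 over both AZA levels for 86 of the 87 ribosomal protein genes, ordered by size, with the 95% interval of the limma fit as a bar; large subunit genes are orange and small subunit genes blue. Changes run from -0.55 to 0.82, and the widest intervals belong to genes with means below 5, such as Rpl27 and Rps7.

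The smallest p-values in that comparison belonged to Rps19bp1 and Rpl39. Rps19bp1 stood at 5.93 and 5.97 log2 CPM with vehicle, 6.40 and 6.47 with AG120, 5.97 and 6.21 with AZA and 6.35 and 6.82 with both drugs. All 4 libraries with AG120 were above all 4 without it. The change was 0.49 ± 0.16 (SE) on the log2 scale, with an adjusted p of 0.0901 by limma. Rpl39, one of the smallest proteins of the large subunit, stood at 9.78 and 9.62 with vehicle, 9.39 and 9.26 with AG120, 9.80 and 9.47 with AZA and 9.34 and 8.90 with both drugs. All 4 libraries with AG120 were below all 4 without it, with a change of -0.45 ± 0.15 and an adjusted p of 0.0917 by limma. Rpl14, of the large subunit, followed at 0.39 ± 0.16 (adjusted p = 0.163), and its highest library without AG120 (10.92, AZA replicate 2) overlapped the libraries with it (10.80 to 11.07).

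Genes that make ribosomes, rather than form part of them, did hold called genes in the same comparison, where 5.85% of all genes were called. Of 49 measured genes of ribosome biogenesis, the nucleolar factors that process ribosomal RNA and assemble the subunits, 13 were called higher with AG120 and 0 lower, and 45 were above 0 with a median log2 change of 0.44. Nolc1, a nucleolar phosphoprotein, rose by 0.87 ± 0.16 (adjusted p = 0.0104 by limma), and Rrp9, a component of the U3 particle that processes ribosomal RNA, rose by 1.08 ± 0.21 (0.0125). RNA polymerase I, which transcribes ribosomal RNA, had 2 of 12 genes called higher, Polr1e (1.33 ± 0.31, adjusted p = 0.0301) and Polr1b (1.02 ± 0.24, 0.0319). Among mitochondrial ribosomal proteins, the counterparts of the members in mitochondria, 5 of 78 were called higher and 69 were above 0, with a median of 0.29. Mrpl12 had the smallest p of these, at 0.83 ± 0.18 (adjusted p = 0.0214). Of 40 translation factors 2 were called higher, Etf1 (0.71 ± 0.15, adjusted p = 0.0214 by limma) and Eif3d (0.56 ± 0.15, 0.0485), and the median was 0.15. The counts for mitochondrial ribosomal proteins and translation factors were near the share of all genes called. Of 17 genes of mTOR and the S6 kinases, which link growth signals to the ribosome, 0 were called. Of 9 genes of the Myc family, which holds the drivers of ribosome production and their antagonists, 1 was called, Mycn, which fell by 2.60 ± 0.65 (adjusted p = 0.0393). The lists were chosen with earlier results of these data known, and the difference between them and the ribosomal protein genes was not tested. Fau (0.06) and Rack1 (0.03), ribosomal proteins whose symbols fall outside the rule, were not called either. In the comparison of AG120 alone with vehicle, 0 of the 49 biogenesis genes were called, where 0.578% of all genes were. With both drugs 0 of the 49 were called against vehicle (3.02% of all genes) and 1 higher against AZA (2.26% of all genes).

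**Figure D4:**
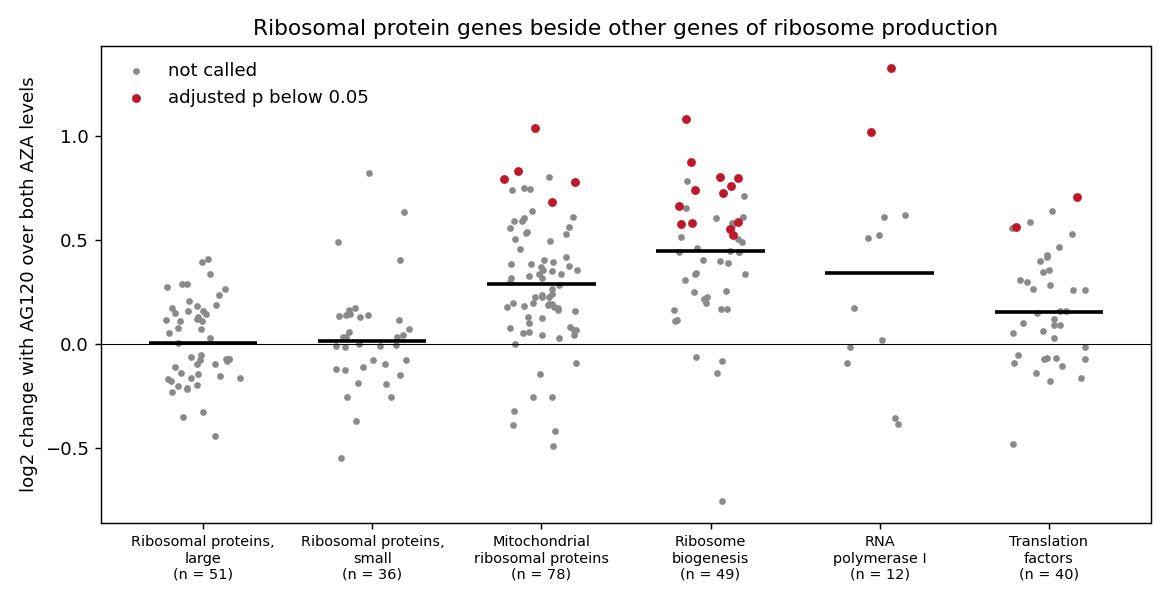
Log2 change with AG120 over both AZA levels for ribosomal protein genes of either subunit and for other lists of ribosome production and translation, 1 point per gene, with the median as a black bar and genes at an adjusted p below 0.05 in red. Both subunits centre on 0 with no red point, while biogenesis genes have a median of 0.44 with 13 red points and mitochondrial ribosomal proteins a median of 0.29 with 5. Of all genes 5.85% were called.

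Marker genes of other cells moved in the same comparison, where 5.85% of all genes were called. The summed CPM of 9 basophil, mast cell and eosinophil genes was 934 to 1360 with vehicle, 3560 to 3783 with AG120, 1451 to 1459 with AZA and 2323 to 3649 with both drugs, and 6 of the 9 were called higher with AG120. The sum of 10 erythroid genes was 1581 to 2300, 719 to 1862, 1884 to 4175 and 3866 to 3906 in the same order. Of the 10, 6 were called higher and 0 lower, while 3 had changes below 0, the lowest -0.84 on the log2 scale. The sum of 7 measured progenitor genes was 846 to 1054, 626 to 682, 776 to 938 and 437 to 502, and 5 of the 7 were called lower. The 10 neutrophil genes summed to 2856 to 13005, 3944 to 6360, 11090 to 15543 and 1073 to 2829, with 1 of the 10 called lower. The 6 megakaryocyte genes summed to 2456 to 2611, 540 to 1404, 2237 to 2709 and 3599 to 3870, with 1 of the 6 called lower. Of 5 measured monocyte and dendritic genes 2 were called lower. Of 4 primary granule genes 0 were called, and all 4 had changes below 0. Kit, the gene of the sort marker cKit, stood at 6.31 and 6.59 log2 CPM with vehicle, 5.15 and 5.84 with AG120, 6.65 and 5.54 with AZA and 4.51 and 4.26 with both drugs, and with AG120 over both AZA levels it fell by 1.33 (adjusted p = 0.0162 by limma). Itgam, which encodes CD11b, was detected in every library, at 2.1 to 4.53. Of the defining B cell genes 0 of 4 were in the table. The part of these shifts in the results for ribosomal protein genes, or for the lists beside them, was not tested.

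With AG120 alone against vehicle, 0 of 87 members were called, where 0.578% of all genes were. At an unadjusted p below 0.05 there were 5 members (5.75%, against 13.1% of all genes). The groups did not overlap for 40 members (46%, against 46.6% of all genes), 21 higher and 19 lower, and the median log2 change was -0.03. Rplp2, a protein of the acidic stalk that recruits elongation factors to the large subunit, stood at 6.88 and 6.83 log2 CPM with vehicle, 6.21 and 6.30 with AG120, 6.35 and 6.48 with AZA and 6.35 and 6.36 with both drugs. Vehicle was above all 6 treated libraries. The change with AG120 was -0.60 ± 0.20 (adjusted p = 0.233 by limma), with AZA -0.44 ± 0.20 (adjusted p = 1) and with both drugs -0.50 ± 0.20 (adjusted p = 0.186). These comparisons share the vehicle libraries. Rplp1, the partner of Rplp2 in the stalk, did not move with it: its changes were 0.04, -0.02 and 0.51. Rplp0, the base of the stalk, had changes of -0.04, -0.18 and -0.09.

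Rps13, a small subunit protein, and Rpl7a, of the large subunit, differed between AG120 given alone and AG120 given with AZA. Rps13 stood at 10.39 and 10.20 log2 CPM with vehicle, 9.85 and 9.60 with AG120, 10.10 and 10.40 with AZA and 10.56 and 10.62 with both drugs. AG120 alone was below every other library and both drugs above every other. Rpl7a stood at 9.13 and 9.08 with vehicle, 9.61 and 9.93 with AG120, 9.29 and 9.5 with AZA and 9.29 and 8.66 with both drugs. Here AG120 alone was above every other library. With both drugs against AG120, where 0% of all genes and 0 of 87 members were called, Rps13 had a log2 change of 0.86 ± 0.19 (unadjusted p = 0.00100, adjusted p = 0.384 by limma) and Rpl7a one of -0.79 ± 0.23 (unadjusted p = 0.00569, adjusted p = 0.384). The interaction, which asks whether the change with both drugs differs from the sum of the single changes, was called for 0% of all genes and 0 of 87 members. Its smallest unadjusted p-values were those of Rpl7a (-1.09 ± 0.33) and Rps13 (0.90 ± 0.27), followed by Rpl10 (-0.91 ± 0.35), Rpl37 (0.80 ± 0.33) and Rps6 (-0.64 ± 0.27), all with an adjusted p of 0.794. Without AG120_AZA replicate 1, in a fit that assumes that the lone remaining library varies like the other groups, 3 members were called against AG120, where that fit called 1.73% of all genes: Rpl7a (-1.11, adjusted p = 0.0477), Rps2 (-1.06, 0.0441) and Rps24 (-1.29, 0.0366). At an unadjusted p below 0.05 there were 6 members against AG120 (10.1% of all genes) and 5 in the interaction (6.22% of all genes).

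With both drugs against vehicle, 0 of 87 members were called, where 3.02% of all genes were (201 higher, 170 lower). At an unadjusted p below 0.05 there were 6 members (6.90%, against 21.4% of all genes), and the groups did not overlap for 32 (36.8%, against 51.1% of all genes). The median log2 change was 0.06, against 0.02 for all genes, with 49 members above 0. Rps24, a small subunit protein and a gene of Diamond-Blackfan anemia, stood at 11.43 and 11.15 log2 CPM with vehicle, 11.15 and 11.07 with AG120, 11.50 and 11.09 with AZA and 10.93 and 9.82 with both drugs. Both libraries with both drugs were below all others, and the second of them was below the first by 1.10. The change against vehicle was -0.92 ± 0.31, or 0.530-fold, with an adjusted p of 0.126 by limma. Without AG120_AZA replicate 1 it was -1.47, with an adjusted p of 0.0104, in a fit that called 5.91% of all genes and 1 of 87 members. Without AG120_AZA replicate 2 the change was -0.37. Rplp1 was also set apart by 1 library, at 12.15 and 12.76 with both drugs and 11.83 to 12.06 in the other 6.

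**Figure D5:**
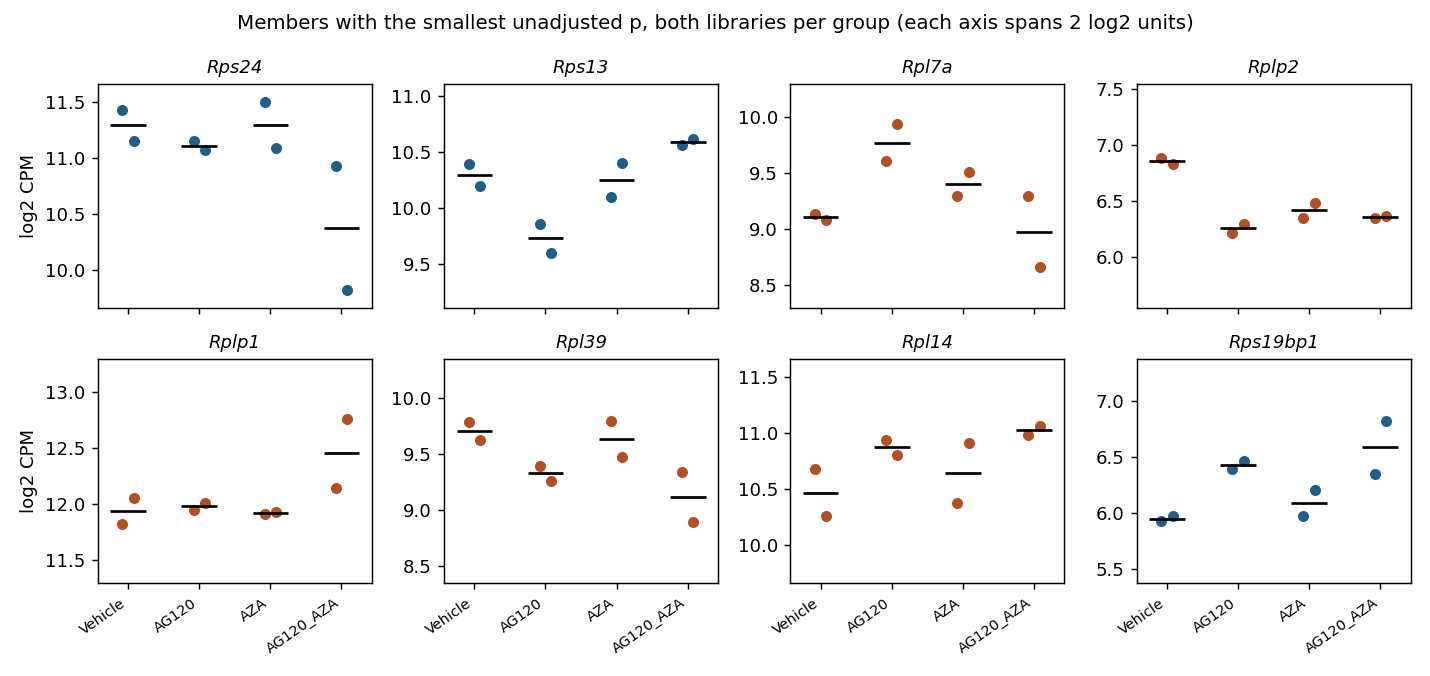
Log2 CPM of 8 members with small unadjusted p-values, with both libraries of each group as points and the group mean as a bar; large subunit genes are orange, and small subunit genes and Rps19bp1 blue, and each vertical axis spans 2 log2 units. Rps24, Rpl7a, Rplp1, Rpl39 and Rps19bp1 show a wide gap between the libraries given both drugs. Rplp2 shows close replicates in every group, and Rps13 only with both drugs.

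Against AZA alone, the libraries given both drugs had 0 of 87 members called, where 2.26% of all genes were, and 4 members at an unadjusted p below 0.05 (19.6% of all genes). Rps24 had the smallest p (-0.92 ± 0.31, adjusted p = 0.145 by limma). It was followed by Rps27a, which is made as a fusion of ubiquitin with a small subunit protein (-0.46 ± 0.18, adjusted p = 0.210), by Rpl39 (-0.52 ± 0.21) and by Rplp1 (0.53 ± 0.23). Without AG120_AZA replicate 1, Rps24 was called here too (-1.47, adjusted p = 0.0122), as 1 of 87 members, where that fit called 4.83% of all genes.

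AZA alone against vehicle had 0 of 87 members called, as for all genes (0%), and 1 member at an unadjusted p below 0.05 (3.51% of all genes). The groups did not overlap for 16 members (18.4%, against 28.4% of all genes). That 1 member was Rpl13, a large subunit protein, at 9.56 and 9.17 log2 CPM with vehicle and 9.71 and 9.93 with AZA, a change of 0.45 ± 0.20 (adjusted p = 1 by limma). The AZA libraries were above those with vehicle, while the AG120 libraries (9.23 and 9.21) lay within the vehicle range. Over both AG120 levels, AZA again gave 0 of 87 members and 0% of all genes, with 1 member at an unadjusted p below 0.05 (6.19% of all genes) and a median change of 0.04 for the members and 0.00 for all genes. Of the large subunit genes 37 of 51 were above 0 and of the small subunit genes 15 of 36, with medians of 0.05 and -0.01. The difference of these medians was 0.06, and between 0.000559 and 0.125 without single libraries. All of these lay below 0.157, the pooled SD within groups of the large minus small median level of a library. Rpl13 had the smallest p here too (0.38 ± 0.14, adjusted p = 0.771). Rps14, whose loss marks 5q- syndrome, stood at 10.92 and 10.90 with vehicle, 11.05 and 11.25 with AG120, 10.75 and 10.82 with AZA and 10.86 and 10.80 with both drugs. It was the 1 member (1.15%, against 2.06% of all genes) whose libraries with AZA were all below those without, by -0.22 (adjusted p = 0.780).

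The 17 genes of Diamond-Blackfan anemia that were listed were all measured, 3 of them at a mean below 5 (Rps7, Rps27, Rpl35). In none of the 8 comparisons was one called by limma, where 0% to 5.85% of all genes were called. With AG120 over both AZA levels 7 were above 0 and 10 below, with a median log2 change of -0.08. In that comparison 1 had an unadjusted p below 0.05, Rps24, where 22.9% of all genes had one. Rps19, the gene most often mutated in that disease, stood at 10.64 in both vehicle libraries, 10.40 and 10.56 with AG120, 10.68 and 10.38 with AZA and 10.35 and 10.51 with both drugs. The groups overlapped except that both drugs and AG120 lay below vehicle. Its change with AG120 over both AZA levels was -0.13, with a 95% interval from -0.41 to 0.15.

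Rpl5 and Rpl11, which with 5S ribosomal RNA form the particle that binds Mdm2 and so stabilises p53 when ribosome assembly fails, had changes with AG120 over both AZA levels of -0.23 (95% interval -0.64 to 0.18) and -0.08 (-0.40 to 0.25). Rpl23, a further Mdm2-binding protein, had -0.05 (-0.33 to 0.23). In that comparison 3 of 24 p53 target genes were called higher and 1 lower by limma, where 5.85% of all genes were called. With both drugs against vehicle 5 of the 24 were called higher and 0 lower, where 3.02% of all genes were called. Rps27l, a p53 target that encodes a paralog of Rps27, stood at 8.57 and 8.64 log2 CPM with vehicle, 8.96 and 8.63 with AG120, 8.79 and 8.72 with AZA and 8.93 and 8.86 with both drugs. The libraries with AZA or both drugs were above those with vehicle, and the change with both drugs against vehicle was 0.29 (adjusted p = 0.405 by limma).

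Of 8 paralogs listed, 4 were in the table. None was called in any comparison by limma, where 0% to 5.85% of all genes were called. Rpl22l1, which can replace Rpl22 in the large subunit, stood at 8.47 and 8.66 log2 CPM with vehicle, 8.58 and 8.62 with AG120, 8.87 and 8.48 with AZA and 8.47 and 8.16 with both drugs. Rpl22, which is mutated in some leukemias, stood at 11.46 and 11.39, 11.17 and 10.98, 11.31 and 11.33, and 11.22 and 11.43 in the same order. AG120 alone was the lowest group for Rpl22 (-0.35 ± 0.19 against vehicle, adjusted p = 0.465), and for Rpl22l1 that group lay within the vehicle range. Rpl36al and Rpl7l1 had changes with AG120 over both AZA levels of -0.06 and 0.16, and their parents Rpl36a and Rpl7 of -0.18 and 0.11. Rpl10, a large subunit protein mutated in T cell leukemia, stood at 7.99 and 7.42 with vehicle, 8.21 and 8.42 with AG120, 7.82 and 8.36 with AZA and 7.82 and 7.76 with both drugs. Its libraries with AG120 were above those with vehicle (0.61 ± 0.25, adjusted p = 0.318), and its libraries with both drugs lay within the vehicle range.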

How the data were processed

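Gene expression was measured by QuantSeq 3′ sequencing in 8 libraries. The submitters' processing notes name HISAT2 2.1.0 and build mm10, cutadapt 1.14 and bcl2fastq 2.17.1.14, Subread 1.6.3 with featureCounts, and edgeR 3.28.1 and limma 3.42.2 in R 3.6.2. The sources used here give neither the annotation nor whether strand was used. The deposited values are log2 CPM, which the authors had brought to 1 distribution. They were used unscaled and unfiltered. Limma 3.58.1 in R 4.3.3 (lmFit, eBayes with a mean-variance trend) fitted 4 group means over all 8 libraries, and an additive model for each drug over both levels of the other. The p-values are two-sided and adjusted by Benjamini-Hochberg over 12294 genes; intervals cover 95%. The fit was tested on simulated data.

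The members and lists were chosen with earlier results of these data known. Named were members called without overlap, else the 5 with the smallest p per comparison, members by role (stalk, Mdm2-binding, Diamond-Blackfan anemia, leukemia, paralogs), the 3 steadiest and 3 least steady, and up to 4 genes of each other list. Alternatives were no trend, vooma weights, only the groups compared, a minimum mean of 5, 3 other scalings, a replicate block, and leaving out each library. Gene positions come from GENCODE M21 (GRCm38, the mm10 assembly) and starts from RefSeq (GRCm38.p6). Copies were aligned with Biopython 1.88. Bisulfite sequencing, named in the series design, was not analysed here. The values of 1 member are not reported singly here.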

Additional observations from a re-analysis of the deposited data

How the results depend on the processing

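Over 125 alternative fits of the 8 comparisons, 3 called a ribosomal protein gene, all without AG120_AZA replicate 1, where the lone library with both drugs is assumed to vary like the other groups. Leaving out single libraries gave 0 to 1 called members with both drugs against vehicle (Rps24), 0 to 3 against AG120 (Rpl7a -1.11, Rps2 -1.06 and Rps24 -1.29, with adjusted p of 0.0477, 0.0441 and 0.0366 by limma) and 0 to 1 against AZA (Rps24 -1.47, 0.0122). For Rps24 against vehicle the adjusted p ran from 0.0104 to 0.667 over all its alternatives. Leaving out single libraries moved the median log2 change of the members from -0.0551 (without vehicle replicate 2) to 0.116 (without vehicle replicate 1) with AZA against vehicle, from -0.0275 (without vehicle replicate 2) to 0.129 with both drugs against vehicle, and from -0.138 (without vehicle replicate 1) to 0.0529 in the interaction. The ratio of large to small subunit CPM without Rpl15 was 1.06 with vehicle, 1.07 with AG120, 1.11 with AZA and 1.18 with both drugs. The cause of these moves was not tested. In each of the 8 comparisons the median turned its sign for at least 1 library left out. No change of scaling, filter, weighting or trend called a member. Whether replicate numbers pair the samples is not known. The difference between replicate 2 and replicate 1, compared between groups, correlated from -0.111 to 0.194 over all genes. Over the 73 members with a mean of at least 5 the correlation ran from -0.626 (vehicle and AZA) to 0.323 (vehicle and AG120). With 1 such difference per group, these values cannot settle the pairing. A replicate block called 0 of 87 members in each comparison. It could not move the fitted changes or their medians, because each group held 1 library of each replicate number. Depth is unknown, and 14 members have means below 5, where intervals are wide.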

Other observations

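Of the 56 -ps symbols 0 were called by limma in any of the 8 comparisons, where 0% to 5.85% of all genes were called. With AG120 over both AZA levels 1 had an unadjusted p below 0.05 (1.79%, against 22.9% of all genes). Of the copies that exceed their parents, Rps12-ps3 stood at 9.68 and 9.52 log2 CPM with vehicle, 9.77 and 9.67 with AG120, 9.78 and 9.89 with AZA and 9.55 and 9.65 with both drugs. Rpl23a-ps3 stood at 10.15 and 10.08, 9.79 and 9.65, 10.02 and 9.67, and 9.92 and 9.93 in the same order, so its libraries with AG120 alone were below those with vehicle. Rps7, listed below 3 in every library, has in Rps7-ps3 a further -ps symbol with the higher level, between 4.86 and 5.50, which could not be aligned because GENCODE M21 does not list it under that name.

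The 8 Rps6 kinase symbols are kinases named for the ribosomal protein S6 and their relatives. With AG120 over both AZA levels 0 of them were called by limma, where 5.85% of all genes were. There 3 had an unadjusted p below 0.05 (37.5%, against 22.9% of all genes): Rps6ka5 (-0.95 ± 0.37, adjusted p = 0.152), Rps6ka1 (-0.47 ± 0.20, adjusted p = 0.187) and Rps6kl1 (0.73 ± 0.32, adjusted p = 0.198).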
